A study of Mus musculus with 6 samples.

Results

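The flavin monooxygenases Fmo1, Fmo2, Fmo4 and Fmo5 and the epoxide hydrolases Ephx1 and Ephx2 were read in mouse liver 12 hours after an overdose of acetaminophen (APAP). These 6 genes were taken by name from the 34745 rows of the gene table, and all 6 had enough reads to be tested among 13734 genes. The study injected WT C57BL/6J mice i.p. with APAP (300 mg/kg, 12 hours) or with saline after a fast of 12 hours, and the methods name male mice. The labels list 3 livers per group. The libraries used here are APAP replicates 1 and 3 and 3 libraries named WT1, WT2 and WT3, which were taken for the saline livers, as the remaining columns are named for APAP. No count column was found for APAP replicate 2, so it was not analysed here. Nothing in the labels says how many mice the libraries came from, so p-values measure the spread between libraries. Each library held between 13378445 and 15976339 reads assigned to genes, and levels are given as CPM, reads of a gene relative to the TMM-scaled library total.

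Flavin monooxygenases are microsomal enzymes that use FAD, NADPH and oxygen to put an oxygen atom on soft nucleophiles, mostly the nitrogen or sulfur of drugs and dietary amines. Microsomal epoxide hydrolase, the product of Ephx1, and soluble epoxide hydrolase, the product of Ephx2, add water to epoxides and turn them into diols. The microsomal enzyme handles many of the reactive epoxides that P450 enzymes make from xenobiotics, while the soluble enzyme is best known for hydrolyzing epoxides of fatty acids such as arachidonic acid. Fmo1 has been described as more abundant in livers of female mice.

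Sex-linked transcripts separated the groups. The X-inactivation transcript Xist was between 0.764 and 1.73 CPM in the APAP libraries and between 289.6 and 914 CPM in the saline libraries, and 4 of 4 Y-linked genes were higher with APAP and at most at 0.0668 CPM in the WT libraries. By these sex-linked transcripts the WT libraries read as female livers and the APAP libraries as male livers, against the male mice of the methods. The labels do not settle whether the WT libraries are the saline mice they list, and the word saline stands for WT1, WT2 and WT3 throughout. Of 21 genes chosen as female-biased in liver, 14 were lower with APAP and none was higher by edgeR's quasi-likelihood test. Of 14 tested genes chosen as male-biased, 1 was lower and none was higher. All 17 male-biased genes summed to 435 CPM in APAP replicate 1 and 14095 CPM in APAP replicate 3, against 1078 to 1499 CPM in the saline libraries. For every result below, APAP and the difference in sex-linked expression cannot be told apart. The tissue label was matched by its markers, since the 13 hepatocyte genes of the list that were found in the table summed to between 100612 and 149194 CPM with APAP and between 146053 and 202494 CPM with saline.

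Fmo1 and Ephx1 were lower in APAP livers than in saline livers, by 2.74-fold and 2.60-fold. No member was called higher. Fmo2 was lower in both APAP libraries without passing the adjusted threshold, and Fmo4, Fmo5 and Ephx2 had libraries that overlapped between the groups. Thus 2 of 6 members were called lower at an adjusted p under 0.05 (edgeR's quasi-likelihood test, Benjamini-Hochberg adjustment over all genes), where 3.53% of all tested genes were called lower, 3.70% higher and 7.23% in either direction. In TMM-scaled CPM, all APAP libraries lay below all saline libraries in 3 of 6 members, where 20.1% of all genes did and 44.1% did not overlap in either direction. For Fmo2, 1 of these members, this depended on the TMM scaling. The median log2 fold change of the 6 members was −0.77, against 0.03 over all genes tested. At the thresholds that the study used, a 1.5-fold change and an unadjusted P under 0.05, the 3 members Fmo1, Fmo2 and Ephx1 were lower, where 11.2% of all genes were lower and 23.5% changed in either direction.

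**Figure D1:**
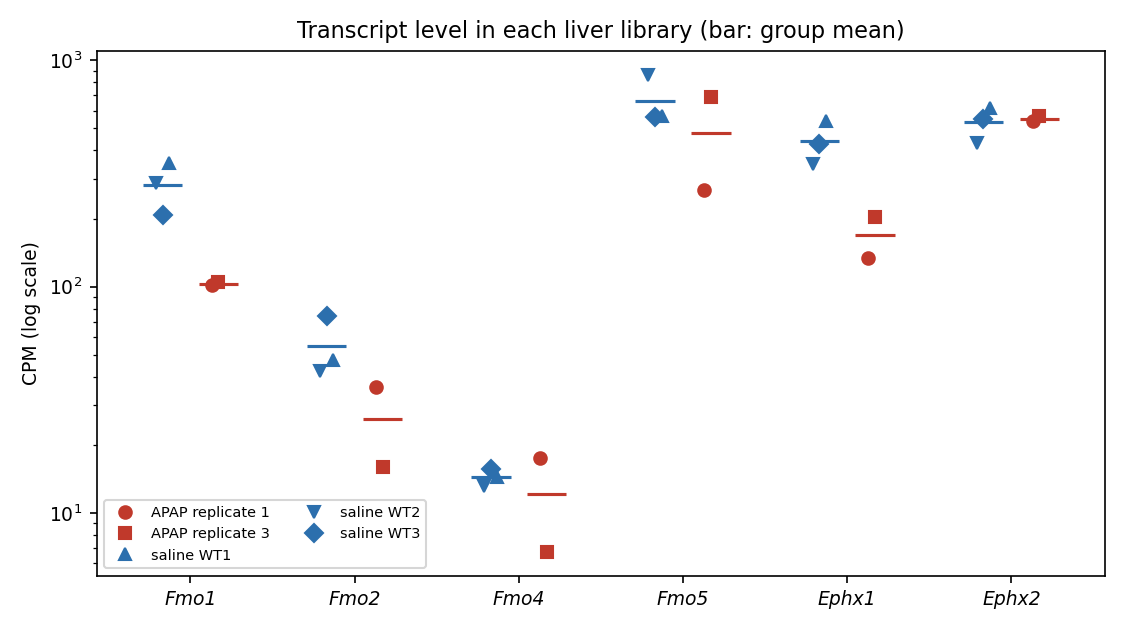
Level of each member in each liver library, in CPM on a log scale. Red symbols are the 2 APAP libraries, blue symbols the 3 saline libraries, and bars the group means. In these TMM-scaled levels, Fmo1, Fmo2 and Ephx1 have no overlap between the groups, and the levels of Fmo4, Fmo5 and Ephx2 overlap.

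Fmo1 (ENSMUSG00000040181, chromosome 1 of GRCm38, 162829561 to 162866610, minus strand) encodes a flavin monooxygenase with a broad range of substrates. It was at 101.5 CPM in APAP replicate 1 and at 104.7 CPM in APAP replicate 3. In the saline libraries it was at 352.9, 287.3 and 206.6 CPM in WT1, WT2 and WT3. Both APAP libraries lay below every saline library and the APAP libraries hardly differed, with a ratio of 1.03. The means were 103 ± 2.25 CPM (SD, n = 2 libraries) with APAP and 282 ± 73.2 CPM (SD, n = 3) with saline, which puts the APAP livers at 36.5% of the saline level. The fitted log2 change, APAP over saline, was −1.45 (SE 0.30, 95% interval −2.15 to −0.75, edgeR adjusted p = 0.0358). The call was lost, with an adjusted p between 0.0649 and 0.202, in each fit without APAP replicate 1, APAP replicate 3, WT1 or WT2, in which the log2 fold change lay between −1.49 and −1.25.

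Fmo2 (ENSMUSG00000040170, chromosome 1, 162874317 to 162898726, minus strand) encodes the monooxygenase best known from lung. It was at 35.9 and 15.9 CPM in APAP replicates 1 and 3, and at 47.6, 42.3 and 73.9 CPM in WT1, WT2 and WT3. In these TMM-scaled levels the APAP libraries were the 2 lowest, but APAP replicate 3 was at 0.442 of the level of APAP replicate 1. Before scaling, APAP replicate 1 held 611 Fmo2 reads of 13378445, and WT1 held 531 of 14259730. The order of these libraries therefore depends on the TMM scaling. The log2 change of Fmo2, −1.08 (SE 0.41, 95% interval −2.05 to −0.10), did not pass (edgeR adjusted p = 0.165). Leaving out APAP replicate 1 gave −1.78, and leaving out APAP replicate 3 gave −0.62.

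Fmo4 (ENSMUSG00000026692, chromosome 1, 162793188 to 162813972, minus strand) was the least abundant member. It was at 17.5 CPM in APAP replicate 1, above all saline libraries, and at 6.74 CPM in APAP replicate 3, below all of them. The saline libraries WT1, WT2 and WT3 were close together, at 14.4, 13.2 and 15.6 CPM. Fitted over all libraries, the log2 change was −0.25 (SE 0.39, 95% interval −1.18 to 0.68, edgeR adjusted p = 0.741), and its sign turned to 0.27 without APAP replicate 3 and to 0.19 with scaling to library size only, while it was −1.09 without APAP replicate 1.

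Fmo5 (ENSMUSG00000028088, chromosome 3, 97628804 to 97655282, plus strand) encodes a monooxygenase of the Baeyer-Villiger type, which inserts oxygen next to a ketone and acts little on the usual amine substrates of the family. It was at 266 CPM in APAP replicate 1 and at 689 CPM in APAP replicate 3, a ratio of 2.59. The saline libraries were at 564.7, 864.6 and 559.6 CPM in WT1, WT2 and WT3. APAP replicate 1 was the lowest of the 5 libraries and APAP replicate 3 lay inside the saline range. The fit gave a log2 change of −0.47 (SE 0.45, 95% interval −1.54 to 0.59, edgeR adjusted p = 0.565), and this became 0.06 when APAP replicate 1 was left out and −1.33 when APAP replicate 3 was.

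Ephx1 (ENSMUSG00000038776, chromosome 1, 180976210 to 181020904, minus strand) was at 134 CPM in APAP replicate 1 and at 203 CPM in APAP replicate 3. In saline livers it was at 537 CPM in WT1, at 348.6 CPM in WT2 and at 428.7 CPM in WT3. The groups did not overlap, and the highest APAP level was below the lowest saline level by more than the APAP libraries differed from each other. The means were 169 ± 48.5 CPM (SD, n = 2 libraries) with APAP and 438 ± 94.7 CPM (SD, n = 3) in the saline group, which puts the APAP livers at 38.5% of the saline level. Ephx1 had a log2 change of −1.38 (SE 0.32, 95% interval −2.13 to −0.62), and its edgeR adjusted p, 0.0492, lay just under the threshold. It rose above 0.05 in all 5 fits that left out 1 library (0.0752 to 0.268), in which the log2 fold change lay between −1.72 and −1.11, and with size factors or upper-quartile factors in place of TMM (0.0522 and 0.0503). An annotated pseudogene, Gm36961, shares 72 exonic bases with Ephx1 and held between 28 and 100 reads per library.

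The promoters of a pair of members are shown, that of Ephx1, which was called lower, and that of Fmo5, which was not. Each is a window of 300 bases, most of it before a start site of RefSeq (GRCm38.p6), and capitals mark a GC box with the letters GGGCGG, the box named for its letters CCAAT, or a TATA box with the letters TATAAA, each on either strand and none overlapping another. RefSeq windows were found for 4 of the 6 members, Ephx1, Fmo2, Fmo4 and Fmo5.
Ephx1, chr1:181017520-181017819, minus strand: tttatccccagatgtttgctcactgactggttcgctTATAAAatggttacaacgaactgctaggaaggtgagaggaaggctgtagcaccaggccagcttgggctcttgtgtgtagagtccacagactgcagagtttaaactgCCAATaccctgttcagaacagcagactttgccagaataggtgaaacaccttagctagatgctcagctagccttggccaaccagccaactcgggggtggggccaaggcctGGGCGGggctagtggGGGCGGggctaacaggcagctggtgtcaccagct
Fmo5, chr3:97628769-97629068, plus strand: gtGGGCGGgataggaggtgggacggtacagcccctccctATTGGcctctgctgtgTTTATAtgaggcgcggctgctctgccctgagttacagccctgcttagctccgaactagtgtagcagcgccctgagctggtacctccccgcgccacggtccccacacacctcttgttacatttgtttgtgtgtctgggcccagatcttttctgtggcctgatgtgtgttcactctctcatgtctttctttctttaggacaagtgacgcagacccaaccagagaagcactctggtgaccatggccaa
The Ephx1 window, whose start site lies 3335 bases inside the gene, held 2 GC boxes, 1 CCAAT box and 1 TATA box. The Fmo5 window, whose start site lies 215 bases inside the gene, held 1 of each. GC boxes occur in 35.7%, CCAAT boxes in 37.4% and TATA boxes in 13.6% of the 32851 promoters of the table, and all 3 together in 0.746%. That combination is the one held by the 2 windows shown, so its share is no test of the pair. The TATA boxes began at −214 (Ephx1) and −195 (Fmo5) from the start site, and the Ephx1 GC boxes at 2 and 17, after it. These TATA boxes and the CCAAT boxes, at −108 (Ephx1) and −211 (Fmo5), lay inside the annotated genes and not before them. The Fmo4 and Fmo2 windows held neither a GC box nor a TATA box. Neither the Ephx1 nor the Fmo5 window held the core of the antioxidant response element (TGACNNNGC, in 12.4% of promoters), the nuclear receptor hexamer AGGTCA (16.3%) or the C/EBP palindrome TTGCNNAA (10.8%) on either strand. The Fmo4 window held CCAAT and AGGTCA, and both Fmo2 windows held TTGCNNAA and the downstream one also AGGTCA. These matches describe letters in the windows only.

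Ephx2 (ENSMUSG00000022040, chromosome 14, 66084377 to 66124500, minus strand) was at 541 and 565 CPM in APAP replicates 1 and 3. The saline libraries were at 615, 431 and 552 CPM in WT1, WT2 and WT3, a range that holds both APAP values. The means were 552.9 ± 17 CPM (SD, n = 2 libraries) and 533 ± 93.6 CPM (SD, n = 3). Its log2 change was 0.05 (SE 0.26, edgeR adjusted p = 0.929), and −0.08 without WT2. Its 95% interval ran from −0.57 to 0.68, so that changes within this range in either direction are compatible with these libraries.

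**Figure D2:**
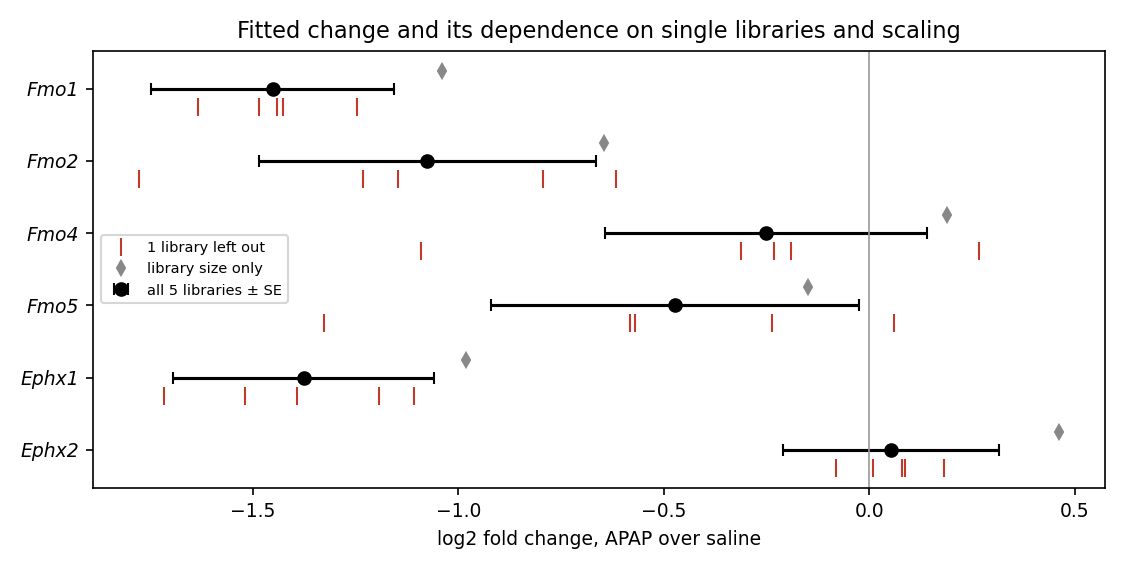
Fitted log2 fold change of each member, APAP over saline (x axis). Black points and bars are the fit to all 5 libraries with its standard error, red ticks the fits with 1 library left out, and gray diamonds scaling to library size only. The values of Fmo1, Fmo2 and Ephx1 stay below 0 in every fit shown, while those of Fmo4, Fmo5 and Ephx2 change sign between fits.

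The 2 epoxide hydrolases differed in how they stood between the groups. Per kilobase of exon, the ratio of Ephx1 to Ephx2 was 1.11, 1.03 and 0.989 in WT1, WT2 and WT3, and 0.317 and 0.458 in APAP replicates 1 and 3. The saline ratios lay close to 1 and the APAP ratios were all lower, with a log2 ratio of −1.39 ± 0.38 (SD, n = 2) against 0.06 ± 0.09 (SD, n = 3). The exact permutation test over libraries gave a two-sided p of 0.2, the smallest that 2 against 3 libraries allow, so the design cannot reach 0.05 for this ratio. The ratio does not depend on the scaling between libraries, because both genes were read in the same library.

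Levels of different genes were compared per kilobase of merged exon length. In saline livers Ephx1 (224.7 CPM per kb) and Ephx2 (214.6 CPM per kb) were the highest, with overlapping libraries. Fmo5 (116.8 CPM per kb), Fmo1 (44.8), Fmo2 (9.73) and Fmo4 (3.89) followed without overlap between neighbors in CPM per kb. In APAP livers Ephx2 was alone at the top with 222.6 CPM per kb. There Ephx1 (86.5 CPM per kb) overlapped with Fmo5 (84.2 CPM per kb), Fmo1 was at 16.4 CPM per kb, and the libraries of Fmo2 (4.62) and Fmo4 (3.26) overlapped. The place of Fmo1 depends on its length, since the merged exons of its 8 transcripts measure 6304 bases but its longest protein-coding transcript 2388. With the longest protein-coding transcript as length, Fmo1 was at 148 CPM per kb in WT1, above Fmo5 (109 CPM per kb), and below Fmo5 in WT2 (120.3 against 166 CPM per kb) and in WT3 (86.5 against 107.7 CPM per kb).

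Per kilobase of merged exon, Fmo5 held the largest share of the summed level of the 4 listed monooxygenases in every library, between 59.3% and 72.9% in saline livers and at 63.3% and 85.1% in APAP replicates 1 and 3. Fmo1 held 33.3%, 21.8% and 22.0% in WT1, WT2 and WT3, and 21.7% and 11.6% in APAP replicates 1 and 3. With the length of the longest protein-coding transcript the order depended on the library, since Fmo1 then held 54.0% and Fmo5 39.7% in WT1, while Fmo5 held more than Fmo1 in the other libraries. Per merged exon, the highest APAP share of Fmo1 was only just below its lowest saline share (exact permutation test, two-sided, p = 0.2, the smallest possible). The summed level of the 4 genes was 108 ± 48.5 CPM per kb (SD, n = 2) with APAP and 175 ± 30.8 CPM per kb (SD, n = 3) with saline, without overlap (exact permutation test, two-sided, p = 0.2). The gap was narrow, from 143 CPM per kb in APAP replicate 3 to 149 in WT3. Unlike the shares, this sum depends on the scaling, with TMM factors of 1.09 and 0.938 in these libraries. It was not computed with other scalings.

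**Figure D3:**
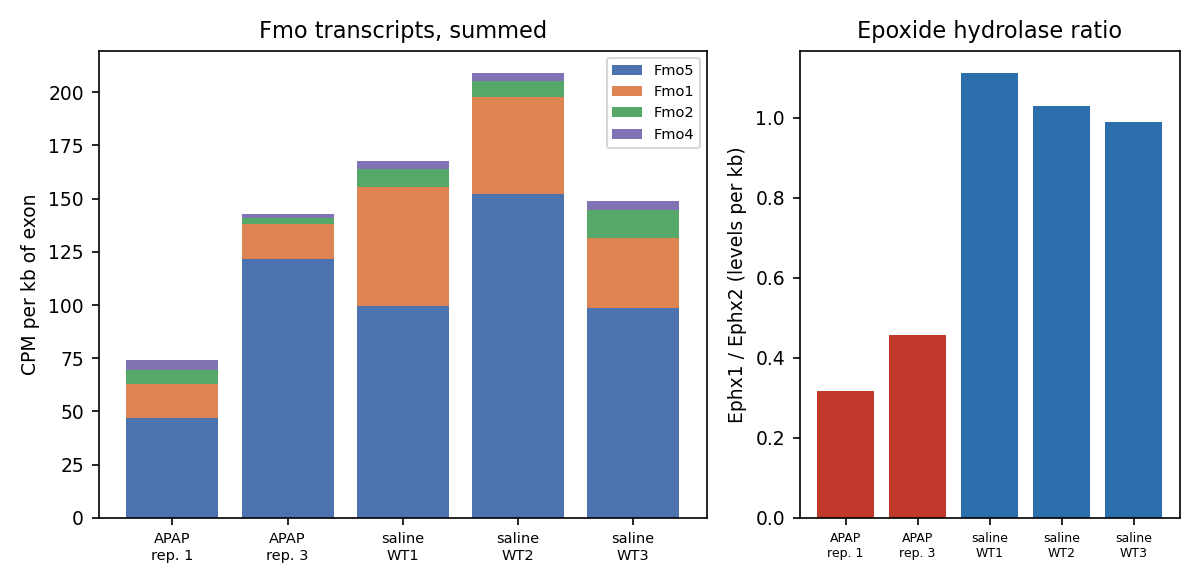
Left, level of each of the 4 listed Fmo transcripts in each library in CPM per kb of exon, stacked. Right, ratio of Ephx1 to Ephx2 in each library, from levels per kb, with APAP in red and saline in blue. The stacked total is 74.1 and 143 CPM per kb in the APAP libraries and between 149 and 209 in the saline libraries, and the ratio is at most 0.458 with APAP and at least 0.989 with saline.

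Fmo1, Fmo2 and Fmo4 lie side by side on chromosome 1 with Fmo6, on the same strand, and the 3 members span 106 kb, whereas Fmo5 is on chromosome 3. The coding sequences of the 4 listed Fmo genes were identical at 58.1% to 62.3% of aligned bases, and those of Ephx1 and Ephx2 at 47.5%. At most 1.89% of the words of 50 bases in a member's transcript occur in another gene, and that member was Ephx1. In this order the log2 fold change was −0.25 for Fmo4, −1.45 for Fmo1 and −1.08 for Fmo2, and Fmo6 had no read in any library. Prrc2c, the gene beyond Fmo4 and not a monooxygenase, was at 0.33 (SE 0.23, edgeR adjusted p = 0.428).

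**Figure D4:**
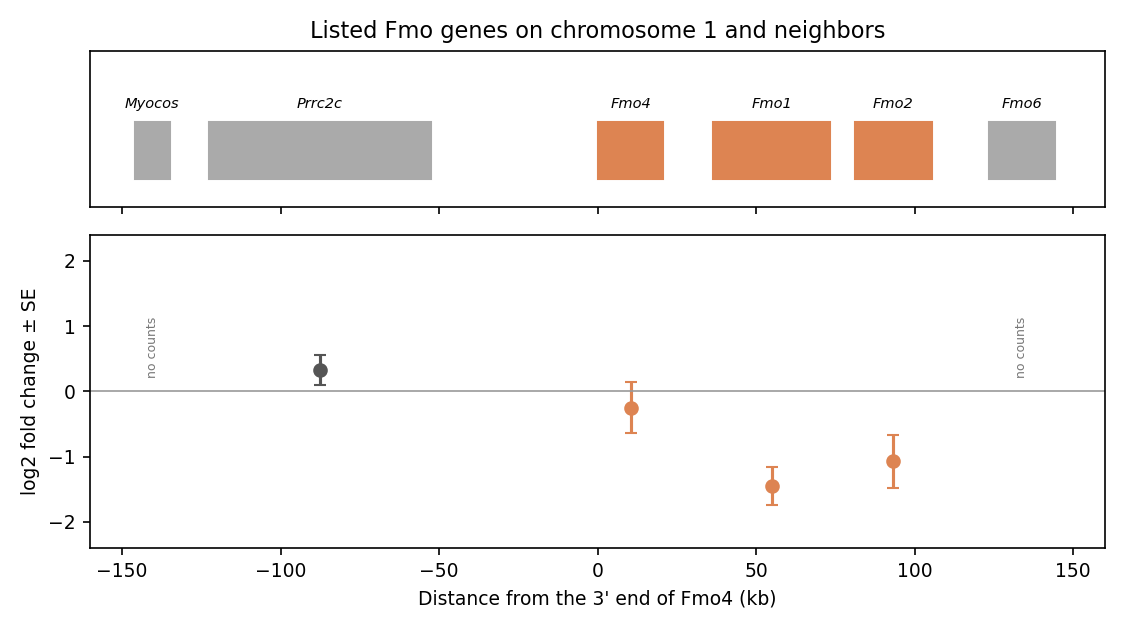
The listed Fmo genes of chromosome 1 with protein-coding neighbors. The x axis gives the distance from the 3′ end of Fmo4 in kb, boxes mark genes (orange, listed members; gray, others), and points give the log2 fold change with its standard error. Prrc2c is at 0.33, and the 3 listed Fmo genes have fitted values from −1.45 to −0.25.

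The APAP libraries differed from each other in Fmo2, Fmo4 and Fmo5. Over 9737 genes averaging 5 CPM or more, the median difference between the APAP libraries was 0.27 on the log2 scale. Fmo5 (1.37), Fmo4 (1.36) and Fmo2 (1.17) differed by more than that, and only 3.34%, 3.41% and 5.06% of these genes differed more. Fmo1 (0.04) and Ephx2 (0.06) were nearly equal in both APAP libraries. Fmo2 and Fmo4 were higher in APAP replicate 1, and Fmo5 and Ephx1 were higher in APAP replicate 3. Some of the other lists differed between these 2 libraries too, and some did not. Of the male-biased genes tested, 13 of 14 were lower in APAP replicate 1 than in APAP replicate 3. All 17 male-biased genes summed to 435 and 14095 CPM against 1078 to 1499 CPM in saline livers, and without Serpina1e, the most abundant, to 243 and 2576 CPM against 482.7 to 845 CPM. Also lower in APAP replicate 1 were 14 of 15 tested genes of monocytes and macrophages, 12 of 14 endothelial, 5 of 5 red cell precursor, 14 of 19 centrilobular and 10 of 13 hepatocyte genes. Higher in APAP replicate 1 were 11 of 11 neutrophil genes tested. Other lists split nearly evenly, with 9 of 18 periportal and 7 of 14 stellate cell and fibroblast genes lower in APAP replicate 1. The same held for 10 of 21 glutathione transferases, 13 of 25 NRF2 targets and 10 of 21 PPARα targets. The share of all tested genes that were lower in APAP replicate 1 was not computed. The neutrophil list summed to 2179 and 745.7 CPM against 15.1 to 71.6 CPM in saline livers, and without Lcn2 to 134 and 84.7 CPM against 5.58 to 9.42 CPM. The part of these lists in the differences of the Fmo genes was not tested.

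The genes whose pattern over the 5 libraries was closest to each member were found by the root-mean-square distance of log2 levels centered on their mean, over 7893 genes averaging 10 CPM or more. For Fmo1 they were Mthfd1, Fbp1 and F7, at distances of 0.07 each. Fbp1, fructose-bisphosphatase of gluconeogenesis, was at 276 and 296 CPM after APAP, compared with 1013, 755 and 627 CPM in WT1, WT2 and WT3. Those of Ephx1 were Cmtm8 (0.07), Lcat (0.08) and Tmco1 (0.08). Those of Fmo2 were Aass (0.09), Cyp17a1 (0.14) and Slc25a15 (0.16), and Cyp17a1 also belongs to the female-biased list. Ephx2 was closest to Litaf (0.03), Uri1 (0.04) and Zbed5 (0.05). Fmo4 was closest to Sertad2 (0.11), Gga2 (0.16) and Abl2 (0.17), and Fmo5, with the least close partners, to Dcaf17 (0.21), Sfmbt1 (0.21) and St3gal3 (0.22).

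Of the other genes that act on epoxides, Lta4h, which hydrolyzes the epoxide of leukotriene A4, was at 28.7 and 22.7 CPM after APAP, compared with 29.2, 25.2 and 28.4 CPM in WT1, WT2 and WT3 (log2 change −0.10, SE 0.21, edgeR adjusted p = 0.808, 0.31 with scaling to library size only and 0.05 without APAP replicate 3). Ephx3 had at most 3 reads and Ephx4 at most 7 reads in a library and neither was tested, and Fmo6 and Fmo9 had no reads. A count of 0 allows up to 3 reads, or 0.176 to 0.269 CPM, by counting error only.

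Genes that work beside the members were read from lists, by edgeR's quasi-likelihood test over all genes. Of 18 P450 enzymes listed as forming epoxides, 11 were lower and none was higher with APAP (median log2 fold change −2.77). Whether each listed enzyme makes substrates of the hydrolases was not examined. The lowest gene of that list was Cyp2c40, at 0.470 and 0.556 CPM after APAP, compared with 504, 287.1 and 185.8 CPM in WT1, WT2 and WT3. Of 21 glutathione transferases, which also clear epoxides, 6 were lower and 2 higher (median −0.92), from Gstm6 (−2.34) to Gsta1 (5.24). Of 7 electron donors and microsomal partners, only Cyb5b, a cytochrome b5 of the mitochondrial outer membrane, was called, lower by 1.76 on the log2 scale (median −0.59), while Por, the reductase that serves P450 enzymes, was at 0.23 (adjusted p = 0.796). None of 8 tested enzymes of arachidonate metabolism was called (median 0.67).

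Ephx1 is known as a target gene of the xenobiotic receptors CAR and PXR and of NRF2, and Ephx2 as a gene raised by PPARα. Of 24 CAR and PXR target genes on the list, 11 were lower and 1 was higher (median −1.44), and the gene called higher was Gadd45b (1.73). The lowest was Sult2a1, a sulfotransferase, at 0.294 and 0.309 CPM after APAP and between 274 and 656 CPM in saline livers. Of 25 NRF2 target genes, 7 were higher, led by Slc7a11, the cystine transporter (17.6 to 42.0 CPM after APAP and at most 1 read in a saline library), and 1, Me1 (−1.42), was lower (median 0.90). Of 21 PPARα target genes, 2 were higher and none was lower (median 0.37), the highest being Plin2, a lipid droplet protein, at 2.49. Of 16 receptors and transcription factors, 1 was called, Cebpa, at −1.35 (median −0.56). Among those not called, Nr1i2, the gene of PXR, was at −0.52 (adjusted p = 0.208), Rxra, the gene of its dimerization partner, at −0.55 (adjusted p = 0.197), Nr1i3, the gene of CAR, at −1.01 (adjusted p = 0.206), Nfe2l2, the gene of NRF2, at 0.30 (adjusted p = 0.427), and Keap1, the gene of its binding partner, at 0.01 (adjusted p = 0.984). These lists share genes, and the CAR and PXR list holds 3 genes of the female-biased list.

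Lists of position, sex bias and cell type were read in the same libraries. Of 19 centrilobular hepatocyte genes, 12 were lower and 1 was higher (median −2.34), from Slc1a2 at −7.98 to Slc1a4 at 1.88. Of 18 periportal genes, 5 were lower and none was higher (median −1.15), the lowest being Gls2 (−2.37). The 21 female-biased genes had a median of −5.37, or −5.02 when genes without reads in a group are set to the bound that 3 reads give, and of 14 male-biased genes 1 was called, Ugt2b1, at −3.13 (median 1.33, turning to −1.67 without APAP replicate 3). Among the female-biased genes called, Cyp3a41b had no read after APAP and between 3.76 and 30.5 CPM in saline livers, so that its fold has only a bound, and Sult2a1 was at −10.53. Hepatocyte genes had a median of −0.34, with 1 of 13 called, Apoa2, an apolipoprotein, at −1.85. Of the other cell types, 9 of 11 neutrophil genes and 2 of 5 cholangiocyte genes were higher, with summed cholangiocyte levels of 347 to 356 CPM against 47.1 to 52.3 CPM. Without Spp1, the most abundant gene of that list, the cholangiocyte sums were 42.5 to 71.0 CPM after APAP and 6.99 to 10.4 CPM in saline livers. Among the neutrophil genes called, Camp, an antimicrobial peptide gene, had no read in saline livers and 0.742 to 1.23 CPM after APAP, and Lcn2, a siderophore-binding protein, was at 5.60. The highest cholangiocyte gene called was Sox9, a transcription factor of bile duct cells, at 3.05. Of 15 genes of monocytes and macrophages 1, Ccr2, was higher (median −0.04), of 14 endothelial genes none was called (median −0.10), and of 14 genes of stellate cells and fibroblasts 1, Col1a1, was higher (median −0.13). Of 2 tested adipocyte genes 1, Cidec, was higher, and of 5 lymphocyte genes and 5 genes of red cell precursors none was called. The adipocyte markers Adipoq, Plin1 and Retn were at most at 0.5345 CPM in any library and Lep had no read, and they were not tested. In these bulk libraries, fewer hepatocytes and less RNA of a gene per hepatocyte cannot be told apart, and the part of these lists in the lower levels of Fmo1 and Ephx1 was not tested.

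**Figure D5:**
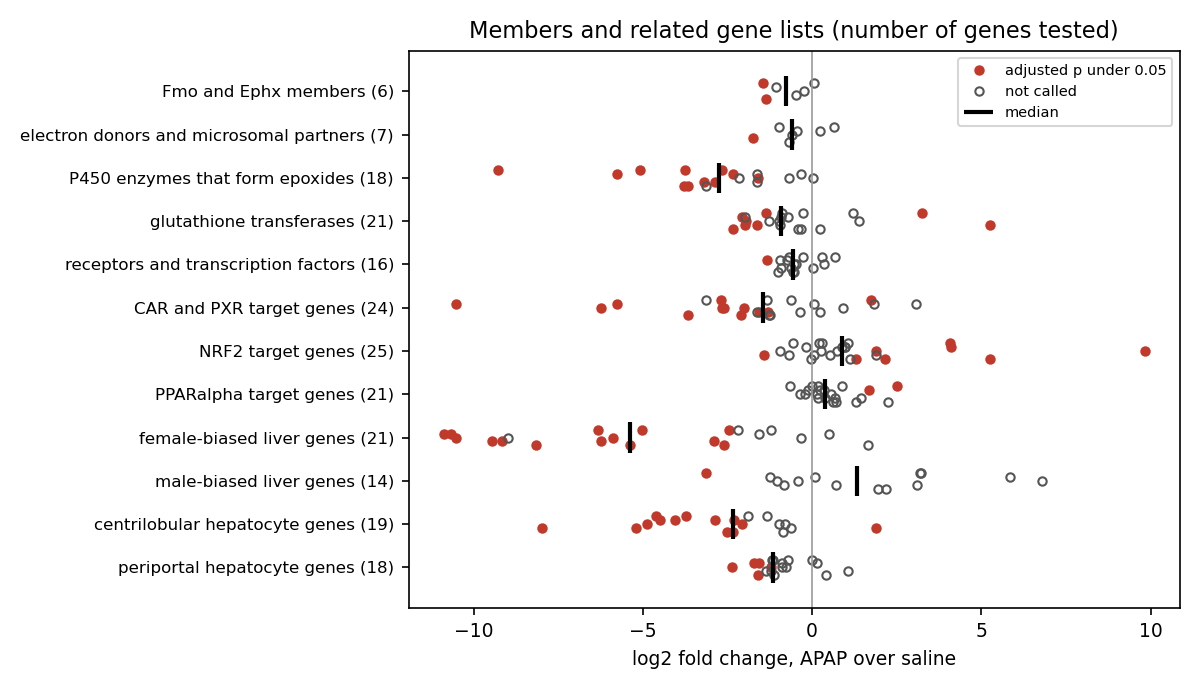
Log2 fold change, APAP over saline (x axis), of the 6 members and of the tested genes of 11 related lists (rows, with the number of genes). Filled red circles have an adjusted p under 0.05, open circles do not, and black bars are medians. The median of the members, −0.77, lies between that of the electron donors and microsomal partners (−0.59) and that of the glutathione transferases (−0.92).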

How the data were processed

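Liver RNA was extracted with TRIzol and sequenced on an Illumina NovaSeq. The authors obtained the deposited whole-number read counts per gene with HISAT2, and the submitters' notes name GRCm38 and mm10. The annotation, the strand setting and the versions are not given in the sources used here. Another 5 columns of normalized values, which the methods credit to StringTie, were not used.

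Genes were kept by edgeR's count filter (minimum of 10 counts in a library of typical size, total of 15), scaled by TMM and tested by the quasi-likelihood test (edgeR 4.0.16, R 4.3.3), with Benjamini-Hochberg adjustment over 13734 genes. The fit had 2 APAP and 3 saline libraries and a biological coefficient of variation of 33.3%. The method was tested on simulated data. Ratios and shares were compared by exact permutation tests. Alternatives were the likelihood ratio and exact tests, DESeq2 1.42.0, other scalings and filters, and fits without each library. The protein-coding transcript length was added after the data were seen.

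Every member and other genes of both families are given (1 item is not reported here), with the lowest and highest called gene of each other list, receptors and transcription factors that the study names, and the 3 most alike genes of each member. Por, Nr1i3, Lcn2 and the sums of list genes were chosen after their values were seen. The members and lists were chosen with earlier results of these data known. Promoters came from RefSeq and lengths from GENCODE M21, and the coordinates of Ephx2 and Lta4h differed between the gene table and GENCODE M21. Figures were drawn with matplotlib 3.10.9 in Python 3.11.15.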

Additional observations from a re-analysis of the deposited data

How the results depend on the processing

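No paired analysis was possible because the saline columns carry no sample number of the labels. The count of members called lower, 2 in all libraries, was 1 with size factors, 1 with upper-quartile factors and between 0 and 1 with a library left out, and none was called higher in any fit. Fits without 1 library gave log2 fold changes from −1.63 to −1.25 for Fmo1, −1.72 to −1.11 for Ephx1, −1.09 to 0.27 for Fmo4, −1.33 to 0.06 for Fmo5, −0.08 to 0.18 for Ephx2 and −0.28 to 0.05 for Lta4h. The signs turned for Fmo4 and Lta4h without APAP replicate 3 (0.27 and 0.047), for Fmo5 without APAP replicate 1 (0.060) and for Ephx2 without WT2 (−0.080). Ephx1 was at −1.42 with size factors and at −1.34 with upper-quartile factors, with adjusted p-values just over 0.05. Scaling to library size only moved the median of all genes from 0.03 to 0.42, and gave 0.19 for Fmo4, 0.31 for Lta4h, −0.65 for Fmo2, −0.15 for Fmo5 and 0.46 for Ephx2. List medians then were −0.19 (electron donors), −0.53 (glutathione transferases), −0.17 (receptors), −1.05 (CAR and PXR targets), 1.27 (NRF2 targets), −4.91 (female-biased), −0.76 (periportal), 0.82 (PPARα targets) and 1.07 (arachidonate metabolism). With at least 10 counts in every library they were −2.16 (female-biased), −9.11 (sex-linked, where Xist alone could be tested) and 0.44 (arachidonate metabolism). With a library left out they ran from −1.69 to −1.27 (CAR and PXR targets), 0.65 to 0.96 (NRF2 targets), 0.25 to 1.05 (PPARα targets), −1.67 to 2.79 (male-biased), 10.52 to 11.33 (sex-linked, against 10.62 with all libraries and 6.60 when genes without reads in a group are set to the bound that 3 reads give), −3.11 to −2.12 (centrilobular), −1.29 to −1.03 (periportal) and 0.46 to 0.81 (arachidonate metabolism). The difference in share, APAP minus saline, was −2.88 to 19.0 points for Fmo5 and −14.1 to −3.99 points for Fmo1 with a library left out, and the log2 ratio of Ephx1 to Ephx2 differed by −1.72 to −1.19. Of all genes 993 were called, against 1835 by the likelihood ratio test, 1776 by the exact test, 2093 by DESeq2, 3228 at the unadjusted threshold with a 1.5-fold change, and 235, 401, 510, 165 and 922 without APAP replicate 1, APAP replicate 3, WT1, WT2 and WT3. The cause of these differences was not tested.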
